A study of Homo sapiens with 6 samples.

Results

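The histone genes of the replication-dependent kind were examined for DNA methylation in M07e cells with and without DNMT3B. Members were all protein-coding RefSeq genes (GRCh38.p14) whose symbol is H1- and a digit, or H2AC, H2BC, H3C or H4C and a digit. Of these, 73 genes are reported: 55 in the large cluster on chromosome 6p22, 11 on 1q21, 2 on 1q42 and 5 elsewhere. Of the 35130 regions in the authors' deposited table, 20 overlapped one of these genes or lay within 5000 bases of one, and these touched 25 of the 73. The rule goes by symbol and so also takes in H1-7, H1-8 and H1-10, which are 3 linker histone genes outside the clusters that are not replication-dependent.

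M07e is an established line of acute megakaryoblastic leukemia cells, here grown with GM-CSF. The control group had 3 libraries labelled WT and the other had 3 libraries labelled DNMT3B knockout, made by CRISPR, and both are M07e with no other treatment in the labels. Whether the knockout is 1 clone or a pool, and whether replicates were separate cultures, is not stated in the labels. Reduced representation bisulfite sequencing reads MspI-cut, CpG-rich fragments, so only part of each gene is seen. The table's knockout column is named M07e_3883, which no label uses, and every direction below rests on reading it as the DNMT3B knockout. Methylation levels do not show whether DNMT3B itself was disrupted.

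Every level, difference, p and q below was taken from the authors' deposited table, with 1 mean per group. Depth and the spread between libraries are therefore unknown, and no test between libraries was possible. How the authors adjusted their q is not stated in the sources used here. A site is 1 CpG cytosine on 1 strand. Of 2501 regions of the table that lie wholly within RefSeq promoter windows, 1897 have more sites than CpG dinucleotides, so 5 sites can be as few as 3 CpGs.

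Replication-dependent histone genes supply the histones that package new DNA in S phase. They are short, lack introns, sit in clusters and end in a stem-loop that takes the place of a poly(A) tail. H2A, H2B, H3 and H4 proteins form the core of the nucleosome, and H1 proteins bind the linker DNA. H2A and H2B genes often lie head to head and share 1 promoter. DNMT3B is a de novo DNA methyltransferase, and CpG-rich promoters of genes that dividing cells use are usually free of methylation.

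The promoters were searched for motifs and for the CCGG site that MspI cuts. RefSeq promoter windows (GRCh38.p14, 250 bases before to 50 after the start) were found for 67 of the 73 members. One of them holds a region of the table, that of H4C8, and it is printed first. In the H4C8 promoter (chr6:26285485-26285784, minus strand) the capitals mark the 37 bases of that region. In the other promoters the capitals mark matches on either strand to TATAAA (the TATA box), CCAAT (the CCAAT box), ATTTGCAT (the octamer) or AAACACA (the H1 box): H1-2 (chr6:26056421-26056720, minus strand), H2AC16 (chr6:27865067-27865366, plus strand), H2BC21 (chr1:149886633-149886932, minus strand) and H3C3 (chr6:26045134-26045433, plus strand). They stand for an H1 gene, the gene nearest to the most negative difference in a cluster, a shared H2A and H2B promoter, and an H3 gene.
H4C8: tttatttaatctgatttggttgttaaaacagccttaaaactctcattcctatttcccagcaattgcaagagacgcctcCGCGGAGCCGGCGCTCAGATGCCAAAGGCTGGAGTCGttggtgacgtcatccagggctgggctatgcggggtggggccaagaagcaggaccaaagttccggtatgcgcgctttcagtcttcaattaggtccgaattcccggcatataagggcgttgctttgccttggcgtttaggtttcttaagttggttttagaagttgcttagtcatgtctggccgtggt
H1-2: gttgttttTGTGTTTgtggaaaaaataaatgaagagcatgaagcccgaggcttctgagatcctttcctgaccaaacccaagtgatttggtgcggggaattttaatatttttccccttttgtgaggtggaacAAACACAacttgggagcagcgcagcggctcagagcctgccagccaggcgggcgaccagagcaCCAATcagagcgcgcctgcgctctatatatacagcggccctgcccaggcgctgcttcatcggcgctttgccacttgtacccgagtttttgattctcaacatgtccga
H2AC16: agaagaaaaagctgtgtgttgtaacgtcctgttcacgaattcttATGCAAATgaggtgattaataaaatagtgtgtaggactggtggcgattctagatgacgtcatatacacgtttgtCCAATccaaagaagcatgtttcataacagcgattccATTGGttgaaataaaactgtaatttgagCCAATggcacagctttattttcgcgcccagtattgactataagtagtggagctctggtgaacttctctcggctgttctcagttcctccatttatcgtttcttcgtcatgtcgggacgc
H2BC21: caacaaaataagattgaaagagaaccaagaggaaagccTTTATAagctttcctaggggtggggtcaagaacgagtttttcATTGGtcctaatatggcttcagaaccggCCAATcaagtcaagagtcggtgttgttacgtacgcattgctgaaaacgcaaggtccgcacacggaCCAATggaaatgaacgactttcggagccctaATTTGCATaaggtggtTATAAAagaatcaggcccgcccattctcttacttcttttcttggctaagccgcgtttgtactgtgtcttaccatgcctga
H3C3: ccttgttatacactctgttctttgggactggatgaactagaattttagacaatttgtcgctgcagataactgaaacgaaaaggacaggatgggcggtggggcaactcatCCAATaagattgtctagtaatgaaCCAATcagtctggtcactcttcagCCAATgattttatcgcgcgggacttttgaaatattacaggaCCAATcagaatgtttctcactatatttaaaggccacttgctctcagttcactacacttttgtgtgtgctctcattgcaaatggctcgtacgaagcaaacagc

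In the H4C8 promoter the capitals cover 5 CpGs, and the table lists 5 sites there. That window has 3 MspI sites (CCGG), H2BC21 has 1, and those of H1-2, H2AC16 and H3C3 have 0. H4C8 has no match to the 4 promoter motifs. H3C3 has 4 CCAAT matches on the coding strand, at 141, 117, 93 and 52 bases before the start. H2BC21 has TATAAA 30 bases before the start and the octamer ATTTGCAT 46 bases before it. The H2BC21 window shares 265 bases with that of H2AC20, its H2A partner.

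Across the clusters, 63 members had a promoter window. Their median GC content was 43%, against 58.7% in all promoters. No motif share given below, that of CCGG included, was adjusted for this. TATAAA, the TATA box, was found in 41 (65.1%) against 11.5% of all 35116 RefSeq promoters. CCAAT was found in 54 (85.7%) against 34.6%. It was in every window of H1 (6), H2A (16), H2B (18) and H3 (11) genes but in 3 of 12 H4 windows. The octamer was in 14 of 18 H2B and 11 of 16 H2A windows, against 1.77% of all promoters. AAACACA, known from H1 promoters, was in 6 of 6 H1 windows against 5.64%. These windows are not independent, because 13 pairs of member windows overlap and 12 of those pairs face opposite ways. The H4C14 and H4C15 windows on 1q21 are identical over all 300 bases, and those of H4C11 and H4C12 are identical at 295. H3C4 and H2AC7 have the same window, which is counted in both families and holds the only octamer match of the H3 windows. Another window listed for H3C4 was not counted. The motifs do not contain each other, both strands were searched, and a match is a description of letters only.

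CCGG, which MspI cuts, was found in 24 of the 63 windows (38.1%) against 63.1% of all promoters. It was in 9 of 12 H4, 4 of 6 H1, 5 of 11 H3, 4 of 16 H2A and 2 of 18 H2B windows. A window held a median of 11 CpGs, against 14 in all promoters, with a median of 16 for H4 and 8 for H3 genes. CCGG was in the windows of 6 of 19 clustered members with a region within 5000 bases and of 18 of 44 without one.

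**Figure D1:**
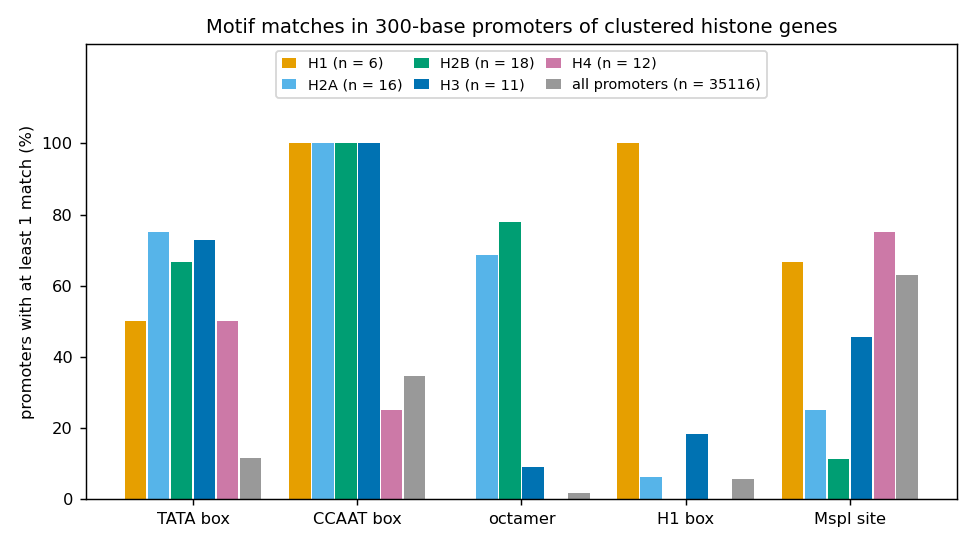
Share of 300-base RefSeq promoters (vertical axis, percent) with at least 1 match to each motif (horizontal axis), for clustered histone genes by family and for all promoters in grey. CCAAT is in every H1, H2A, H2B and H3 window, the octamer mostly in H2A and H2B windows, and the H1 box in all 6 H1 windows.

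None of the 20 regions was called, where a call needs q under 0.01 and a difference of at least 25 points. Over all regions of the table, 6.74% were called, 4.57% higher and 2.17% lower in the knockout. A count of 0 in 20 allows a share of up to 15% (3 divided by 20), so the members cannot be set apart from the background by this count. That limit takes the regions as independent. Of the 20, 10 were under 10% in both groups, which by itself means a difference under 25 points. By the authors' Kolmogorov-Smirnov p, 2 of 20 regions were under 0.05 unadjusted, against 22.3% of the table. By their Mann-Whitney p it was 6 of 20, against 43.6%. Adjusting the Kolmogorov-Smirnov p over the whole table called 0 of 20, against 4.12%. Of the 20, 6 differed by at least 25 points, against 52.0% of the table, and 0 had a q under 0.01, against 9.06%. All 20 have 5 to 12 sites, and of the table's regions in that range 4.56% were called. In that range 18.2% were under 0.05 by the Kolmogorov-Smirnov p and 37.0% by the Mann-Whitney p. There 49.0% differed by at least 25 points and 6.61% had a q under 0.01. Looser thresholds called 0 of 20 as well, where 8.60% (at least 10 points) and 10.5% (q under 0.05) of all regions were called. With 0 of 20 under a q of 0.01, the 10-point threshold could only call 0. The same holds for q under 0.05, as the lowest q of the 20 was 0.0743. Stricter thresholds can only call 0 of them, and call 3.42% (at least 40 points) and 3.31% (q under 0.001) of the table.

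In the clusters, methylation was low in both groups at 10 of 12 regions, and at all 7 that overlap a gene. These 10 had between 0% and 3.33% in control and between 0.909% and 3.77% in the knockout. Differences ran from -2.42 to 2.90 points, 7 higher and 3 lower in the knockout, and the lowest q was 0.0744. Being under 10% in both groups already means a difference under 25 points, so the lack of a call here only restates the levels. A low control level alone does not prevent a call: the MACROH2A2 region described below was called from 4.66% in control. The 10 regions have 5 to 7 sites over 18 to 88 bases.

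H4 genes encode one of the most conserved of all proteins. Inside H4C2 (chr6:26027058-26027087, its centre 211 bases into the gene), 5 sites were at 0.713% in control and 2.22% in knockout cells (q = 0.0744). The H4C8 region shown above in capitals (chr6:26285670-26285706, its centre 154 bases before the start) was at 3.33% in control and 0.909% in knockout cells (q = 1). Both are near 0, and they differ in opposite directions by under 3 points.

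H3 genes encode the histone whose tail carries many of the best known modifications. Inside H3C3 (chr6:26045462-26045497, centred 95 bases into the gene), the level was 0% in control and 1.94% in the knockout. Inside H3C11 (chr6:27872138-27872155) it was 2.37% and 1.22%. The region near H3C12 (chr6:27886978-27887041) lies 3274 bases outside the gene and was an exception, with 6 sites at 14.8% in control and 50% in the knockout. Its difference of 35.2 points is larger in size than at the other 19 member regions, with q = 0.392, and 12.4% of the table's regions differ by as much or more.

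H2A and H2B genes encode the pair of core histones that bind as a dimer. A region inside H2AC7 (chr6:26199185-26199210), 306 bases from H2BC7 and also within the longer span of H3C4, was at 1.25% in control and 2.21% in the knockout. On 1q21, H2BC21 (chr1:149885749-149885810) was at 0.575% and 2.25%, and its partner H2AC20 (chr1:149887081-149887102) at 1.01% and 3.08%. The 2 regions flank the shared promoter printed above, and both were at most 3.08% in either group. Near H2AC11 (chr6:27133855-27133881, 320 bases outside) the levels were 0.873% and 3.77%. The region assigned to H2BC5 (chr6:26171777-26171864) was at 1.82% and 0.998%. It lies 428 bases past the far end of a long annotated span, its centre 13698 bases from the start.

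The region near H2AC16 (chr6:27864923-27864993) was the other exception in the clusters. It ends 324 bases before the start of H2AC16 (its centre is 359 bases before), just upstream of the promoter printed above, and 522 bases from the pseudogene H2BC16P. Its 9 sites had 45.5% in control and 21.5% in the knockout, 24.1 points lower, with q = 0.385. Of all regions in the table, 53.8% differ by as much or more. H1-5, a linker histone gene, is 1799 bases away.

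Of the clustered H1 genes, H1-2 was the only one with a region inside it. That region (chr6:26056057-26056142, centred 371 bases into the gene) was at 0.111% in control and 2.51% in knockout cells (q = 1). H1-5 had the 2 regions already given for H2AC16 and H3C11 within 5000 bases. H1-1, H1-3, H1-4 and H1-6, the last a testis linker histone, had none.

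**Figure D2:**
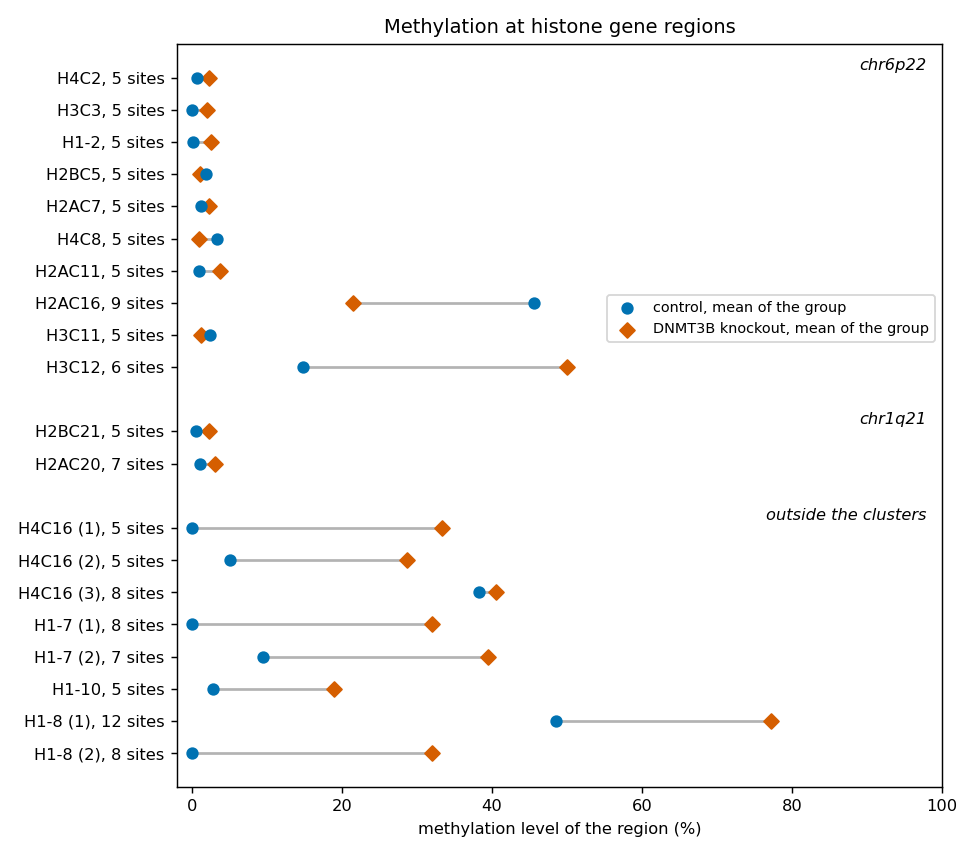
Methylation level (horizontal axis, percent) of the 20 regions, 1 row each with its nearest histone gene and number of sites, by cluster. Circles are control and diamonds knockout group means, without error bars because the table has no single libraries; 10 of the 12 cluster regions have both points at most at 3.77%.

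Outside the clusters, none of the 8 regions was under 10% in both groups. The median level was 3.91% in control and 32.7% in the knockout, against 7.59% and 30.9% in the whole table. All 8 were higher in the knockout, by 2.30 to 33.33 points, as were 68.4% of the table's regions.

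H4C16, a solitary replication-dependent H4 gene on chromosome 12, had 3 regions, all outside the gene. Downstream, 5 sites (chr12:14769415-14769602, 1118 bases away) were at 0% in control and 33.33% in the knockout with q = 1. Also downstream and 196 bases away, 5 sites within 8 bases (chr12:14770517-14770524) were at 5.01% and 28.7%, with q = 0.0743. Upstream, 8 sites (chr12:14774532-14774577, 3401 bases away) were at 38.3% and 40.6%; this region lies inside H2AJ, a replication-independent H2A gene. The middle region, nearest to H4C16, has the lowest q of the 20 regions and still misses both thresholds.

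The linker histone genes outside the clusters had levels that were higher in the knockout, with no q under 0.1. H1-10, a widely used replacement linker histone, was at 2.81% and 18.9% inside the gene (chr3:129315181-129315223, q = 0.317). H1-8, the oocyte linker histone, was at 48.6% and 77.2% over 12 sites inside the gene (chr3:129547262-129547425, q = 0.178), and at 0% and 32.0% in a region 4933 bases away (chr3:129556400-129556453). H1-7, of the testis, was at 9.52% and 39.5% inside the gene (chr12:48329556-48329628, q = 0.598) and at 0% and 31.9% in a region 2833 bases upstream (chr12:48325915-48326147). The 77.2% at H1-8 is the highest level of any member region in either group.

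At 3 of these 8 regions (1 each of H4C16, H1-7 and H1-8) the control mean is exactly 0 and the knockout mean between 25% and 33.33%, each with q = 1. Of all regions in the table, 20.97% have this pattern, and none of the 12 cluster regions does.

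**Figure D3:**
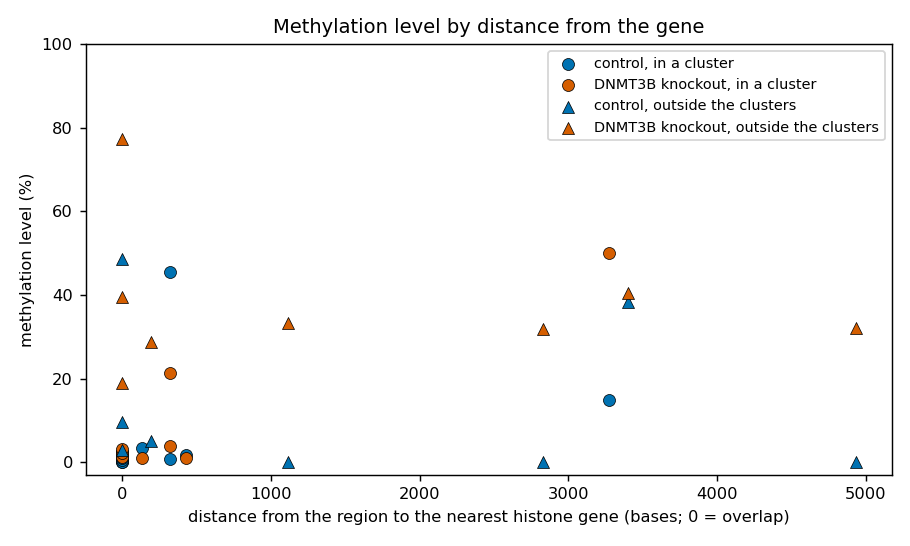
Methylation level (vertical axis, percent) of the 20 regions against distance from the nearest histone gene (horizontal axis, bases, 0 for overlap), control in blue and knockout in orange, with circles for clustered genes and triangles for others. The circles at 0 bases stay at or below 3.08%. Those at 136, 320 and 428 bases (H4C8, H2AC11 and H2BC5) are also low, at most 3.77%. The circles at 324 and 3274 bases (H2AC16 and H3C12) lie higher, as do most triangles, including knockout triangles at 0 bases.

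The low levels at clustered histone genes were set beside those of other sets as a description, with no test. Under 10% in both groups were 10 of 12 regions (83.3%, exact Clopper-Pearson 95% interval 51.6 to 97.9, over regions and not libraries). Over all 20 member regions, the planned set, it was 10 (50%, interval 27.2 to 72.8). The clusters-only share was added after seeing the data. In the rest of the cluster spans, over 5000 bases from a member, it was 11 of 37 (29.7%). At 89 genes chosen by symbol as ribosomal protein genes, a family that dividing cells use, it was 54 of 97 (55.7%, interval 45.2 to 65.8). Regions of 1 locus are not replicates, so the intervals do not test the sets against each other. At 53 clustered protocadherin genes, another tandem family, it was 2 of 45 (4.44%). At genes of histone biology listed below it was 11 of 17 (64.7%, interval 38.3 to 85.8) for chaperones, 7 of 13 (53.8%) for replication-independent variants and 14 of 38 (36.8%) for transcription and mRNA factors. Over all regions it was 17.1%, and 35.7% within 1000 bases of an end of a protein-coding gene.

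**Figure D4:**
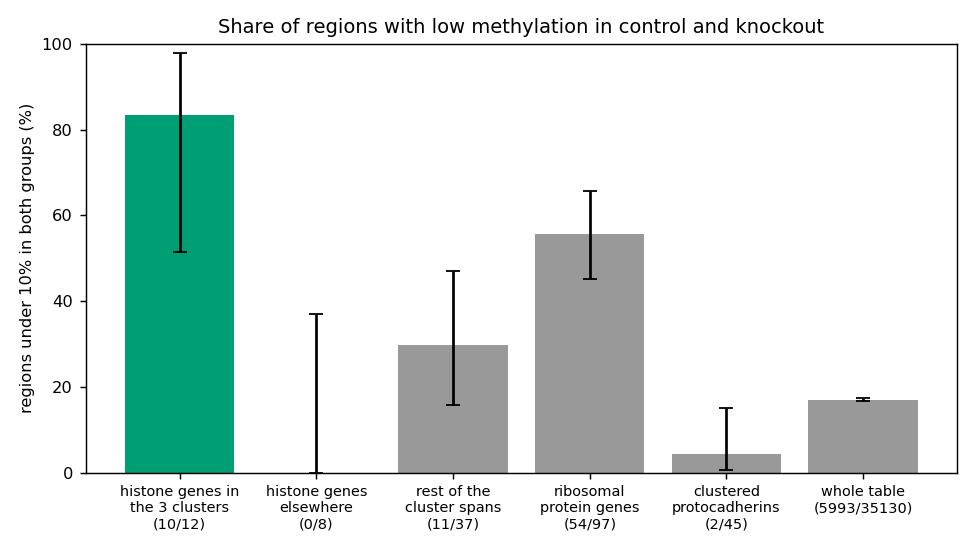
Share of regions under 10% methylation in both groups (vertical axis, percent) by set, with exact 95% binomial intervals over regions and the counts under each bar. The intervals take regions as independent and do not show the spread between libraries. Clustered histone genes have 10 of 12 such regions, histone genes elsewhere 0 of 8, and all regions together 17.1%.

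The median difference was 1.59 points over the 12 cluster regions and 29.3 points over the 8 outside, against 17.4 in the table. It was 11.6 points in the rest of the cluster spans, 1.65 at ribosomal protein genes and 16.8 at protocadherin genes. One of the 37 regions in the rest of the spans was called: inside the zinc finger gene ZNF391 (chr6:27374807-27374939), 9 sites were at 20.2% in control and 72.1% in knockout cells (q = 0.00121). The same region also overlaps ZNF204P. ZNF391 was the only one of 22 other protein-coding genes within the spans with a call, and 6 of the 22 had a region.

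Genes that work with these histones were counted for calls as well. Of 14 replication-independent histone variant genes 10 had a region, and 1 of 13 regions was called; 4 of the 13 are also member regions. The call was at MACROH2A2, a macroH2A gene, where 5 sites (chr10:70053361-70053373) were at 4.66% in control and 44.2% in knockout cells (q = 5.35e-05). Both H3.3 genes were low: H3-3A at 2.21% and 5.44%, and H3-3B at 0.578% and 2.74%. Both regions of H2AX, which marks DNA breaks, were at most 2.79% in either group. The region near H2AZ1, which encodes the variant H2A.Z, was the 1 of 13 that was lower in the knockout, at 20.5% and 2.70% (q = 0.0236).

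Of 22 genes for histone transcription and histone mRNA processing, 16 had a region, and 3 of 38 regions were called, 2 higher and 1 lower. UPF1, a helicase in histone mRNA decay, had 47 sites (chr19:18868722-18869295, 492 bases from the gene) at 8.94% in control and 42.0% in knockout cells (q = 5.48e-05), and 11 sites inside it (chr19:18868014-18868042) at 30.3% and 78.0% (q = 0.00312). The other UPF1 regions were not called and went both ways. The most negative, 6 sites inside the gene (chr19:18867416-18867481), was at 66.3% and 31.9% (q = 0.269). SYMPK, a scaffold of the 3' end cleavage complex, had 19 sites (chr19:45864346-45864408, 1199 bases away) at 57.6% and 14.7% (q = 2.93e-08). Other SYMPK regions were higher in the knockout and not called. They were at 1.98% and 27.6% over 13 sites next to it (chr19:45864495-45864777, q = 0.184), and at 6.67% and 32.7% over 5 sites inside the gene. SLBP, which binds the histone mRNA stem-loop, was at 0.766% and 1.71%, and HINFP, which binds H4 promoters, at 1.43% and 3.75%. These 2 are not typical of the list, where 24 of 38 regions were at 10% or more in a group. A region near E2F1, a cell cycle transcription factor, passed the q threshold but not that of size, with 13 sites at 0.855% and 12.3% (q = 7.77e-06). Of 16 histone chaperone genes 11 had a region, and 0 of 17 regions were called. A region inside IPO4, an importin that carries histones, missed only the size threshold, at 3.002% and 27.0% (q = 0.000736). The called shares, 1 of 13, 3 of 38 and 0 of 17, lie around the overall 6.74% and show nothing particular to these lists.

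No region was found within 5000 bases of the other 48 members. These include both genes of the 1q42 cluster (H2AC25 and H2BC26), 8 of 11 on 1q21, 37 of 55 on 6p22 and H2BC12L on chromosome 21. By family, 4 of 9 H1, 12 of 17 H2A, 13 of 19 H2B, 8 of 13 H3 and 11 of 15 H4 genes had none, and their methylation was not analysed here.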

How the data were processed

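M07e genomic DNA was measured in 6 libraries, 3 control and 3 DNMT3B knockout. Per the submitters' processing notes, FastQC, Trimmomatic, Bismark, HISAT2, methylKit and hg38 were used, without roles or versions. The authors deposited 1 table of regions with a methylation percent per group, the difference, the number of sites, 2 p-values and a q-value per region; how q was adjusted is not stated there. The table has no single libraries or coverage, so depth is unknown, no count model was run and the planned model over libraries was replaced by the authors' q.

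Regions were matched to RefSeq genes (GRCh38.p14, the same build) by overlap or within 5000 bases. Coordinates are 1-based, with both deposited ends moved 1 base to the right of a half-open reading: then both ends lie on a CpG in 2501 of 2501 regions inside promoter windows, against 967 without the move. The deposited difference was off the difference of the group means by over 0.01 points at 0 of the 20 regions. One item that the rule takes in is not reported here and is in no count of members.

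The members, lists and rules were chosen with earlier results of these data known. Every region of the members is given; genes of the related lists are named for a call or by role or value, the latter chosen after their values were seen. Ribosomal protein genes are RPL, RPS, RPLP and RPSA symbols without RPS6K kinases and readthroughs. Overlap and Benjamini-Hochberg code was tested on simulated data. Python 3.11.15 with pandas 2.3.3 and scipy 1.17.1 was used. Alternatives covered thresholds, window, sites, members and coordinates.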

Additional observations from a re-analysis of the deposited data

How the results depend on the processing

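The count of called regions at histone genes was 0 with a window of 10000 bases (22 regions), an alternative that could have raised it. It was 0 with q of 0.05 as well, and could only be 0, as the lowest q of the 20 was 0.0743. With 0 of 20 under a q of 0.01, differences of 10 points could only return 0. The adjusted Kolmogorov-Smirnov p could only return 0 too, as the lowest unadjusted p was 0.0228. Coordinates 1 base to the left, added after seeing the data, again gave 20 regions and 0 calls. The stricter ones could only return 0 and say nothing about stability: 40 points, q of 0.001, windows of 0 or 1000 bases, minimum sites of 5 (which all 20 regions have) or 10, clusters only, and, added after seeing the data, without H1-7, H1-8 and H1-10. The median difference of 2.35 points was 2.00 with overlap only, 1.94 within 1000 bases, 2.65 within 10000 bases, 28.6 at the 1 region of at least 10 sites, 2.07 without regions at 0 in one group and 25% to 33.33% in the other, 1.59 in the clusters and, added after seeing the data, 1.94 without the 3 linker genes; the site-weighted mean was 11.9. The share under 10% in both groups, 50% of 20, was 50% and 55% at levels of 5% and 20%. In settings added after seeing the data it was 83.3% in the clusters and 66.7% without the 3 linker genes. No paired analysis was possible because the table holds only group means, and leaving out replicates was not run for the same reason. Depth is unknown, so what it limits cannot be given.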

Other observations

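The 37 regions of the cluster spans over 5000 bases from a member include some at tRNA genes, which share the 6p22 span with the histone genes. A region overlapping TRL-TAA4-1 (chr6:27230572-27230582) was at 2.49% in control and 12.5% in knockout cells (q = 0.0743), and one overlapping TRD-GTC2-6 (chr6:27479729-27479740) at 0.591% and 1.51% (q = 1). Inside HMGN4, which encodes a nucleosome-binding protein, 7 sites were at 0.159% and 2.12%. The most negative difference in these spans (chr6:27539618-27539679) was over 7 sites at 45.4% in control and 4.76% in knockout cells, with q = 0.0667, and was not called. These values were chosen after they were seen.

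Just beyond the 5000-base window of the 1q42 cluster, 2 regions lay 5913 and 6217 bases from H2BC26. They were at 0% and 32.8% over 12 sites and at 20.0% and 33.33% over 5 sites in control and knockout, each with q = 1.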
